A study of Mus musculus with 9 samples.

Results

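The genes described here are 3 FOXO transcription factors and 6 components of the phosphoinositide 3-kinase (PI3K) pathway that controls them: Foxo1, Foxo3, Foxo4, Pik3cd, Pik3r1, Akt1, Akt2, Inpp5d and Pik3ip1. They were taken as all probe sets whose annotated gene symbol is 1 of these 9, which gave 30 of the 45101 probe sets on the array, for 9 of the 18193 genes with a symbol of their own. RNA was measured on 9 Affymetrix mouse arrays in 3 groups of 3. All cells were pre-B cells, a stage of B cell development before the complete antigen receptor is made, and all carried null alleles of both IRF4 and IRF8 (genotype IRF4,8 -/-). In the IL7lo group they grew in low IL-7, in the +IRF4 group IRF4 was reintroduced and IL-7 was high, and in the IL7hi group, the control for both, IL-7 was high and no IRF4 was added. IL-7 was labelled as 0.25 ng when low and 5 ng when high, with conflicting volume units, so no concentration is stated. They do not say how IRF4 was delivered, and no empty-vector group is named, so IRF4 and its delivery cannot be told apart. The origin of the 3 replicates in each group (culture or animal) is not stated, and the p-values then reflect only array-to-array spread, which may be technical.

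PI3K converts a membrane lipid into a docking signal that recruits the kinase AKT, and AKT phosphorylates FOXO proteins, which then leave the nucleus and lose their hold on their target genes. Lipid phosphatases and inhibitory proteins counter PI3K. In B cell precursors the IL-7 receptor and the pre-B cell receptor both feed into this pathway, and FOXO1 is known there as an activator of Rag1, Rag2 and Il7r. This control acts on the proteins, whereas the arrays measured only the RNA of each component.

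The values are linear intensities as deposited, and all differences are on the scale of log2(intensity + 16). That scale understates changes of dim probe sets. A probe set was tested when its mean over the 9 arrays reached an intensity of 108, and it is said to have risen or fallen only at an adjusted p under 0.05 over all 27024 probe sets tested. Of the 30 probe sets, 28 were tested. The other 2, 1 of Foxo4 and 1 of Pik3cd, were too dim and are given as values only. A gene was counted by its brightest probe set, and intensities of different probe sets are not compared with each other.

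The arrays had similar medians, from 139.7 to 151.3 intensity units, but 2 of them stood apart. The mean log2 signal of the 18S ribosomal RNA control was 6.41 in +IRF4 replicate 3 and 6.53 in IL7hi replicate 1, against 7.70 to 8.49 on the other arrays. The deviations of these 2 arrays from their group means correlated with r = 0.41 over the tested probe sets, a description only. Those of IL7hi replicate 1 correlated more strongly, at 0.53, with IL7lo replicate 1, whose 18S signal was 7.70. In +IRF4 replicate 3 and IL7hi replicate 1 the 3′ to 5′ log2 ratio was lowest for the Actb control (0.33 and 0.28). It was highest there for Gapdh (0.14 and 0.13). Because of the 18S signal, the differences of the tested probe sets of the FOXO and PI3K pathway genes described here were also computed without both arrays. So were the counts of called probe sets and of called genes in the pathway lists below. This choice was made after seeing the data. Differences of single genes in those lists, list medians and distances between profiles were computed with all arrays only. Of 12 B-lineage precursor markers, 10 had a probe set and all 10 passed the filter. Their summed intensity was 89853 to 91598 in IL7lo, 65774 to 69969 in +IRF4 and 59901 to 68327 in IL7hi, with 7 of the 10 higher in IL7lo than in IL7hi. The defining B-lineage markers were therefore present in all groups. Stromal markers were also present, with 8 of 10 above the filter and summed intensities of 10549 to 14576 in IL7lo, 11395 to 23982 in +IRF4 and 10859 to 32279 in IL7hi. The sums of 10 myeloid markers were 2272 to 2525 in IL7lo, 1177 to 1345 in +IRF4 and 1408 to 1638 in IL7hi. Those of 8 T cell markers stayed between 2400 and 3018 on all arrays, those of 5 erythroid and megakaryocyte markers between 837 and 993 and those of 5 dendritic and natural killer cell markers between 630 and 730, and no marker of any list was at 0. The filter was passed by 5 myeloid, 5 T cell, 2 erythroid and megakaryocyte and 3 dendritic and natural killer cell markers. The sums of these 4 lists therefore do not show that such cells were present. The part of these cell types and of the 18S signal in the results was not tested except where values without the 2 arrays are given. In bulk RNA, fewer cells of a type and less RNA per cell cannot be told apart. As a check of the +IRF4 label, 1 Irf4 probe set, 1421174_at, averaged 10.63 on the log2 scale in +IRF4 and 8.17 in IL7hi (5.48-fold, adjusted p = 0.00109). The other, 1421173_at, went the other way, with 11.93 in +IRF4 and 12.33 in IL7hi (adjusted p = 0.0365), and was bright in the IRF4,8 -/- cells without added IRF4. Which part of the transcript each probe set covers relative to the null allele is unknown here, so this check supports the +IRF4 label on 1 probe set only.

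The IL7lo and IL7hi arrays were compared to see how the RNA of these genes follows the cytokine. Foxo1, Pik3ip1 and Inpp5d rose in IL7lo, and no member of the set fell. All 3 oppose PI3K or are opposed by it: FOXO1 is the factor that AKT removes from the nucleus, Pik3ip1 encodes a membrane protein that inhibits PI3K, and Inpp5d encodes SHIP1, a phosphatase that removes the lipid made by PI3K. The PI3K subunit genes Pik3cd and Pik3r1 and the kinase genes Akt1 and Akt2 gave no call, and neither did Foxo3 and Foxo4. The calls were thus 3 of 9 genes, or 33.3%, which is close to the 36.9% of all 12828 genes tested that were called in either direction. Among all genes 17.6% rose and 19.4% fell. By probe set, 6 of 28 rose, beside 18.1% of all probe sets. Over the 9 genes the median difference was 0.19, beside 0.02 over all genes. Rises in the pathway were not confined to genes that oppose PI3K. Outside the set, 7 of 10 tested PI3K subunits and adaptors rose and none fell, with 1 of the 7, Pik3r5, below the filter in IL7hi. Of 10 tested phosphatases and other brakes outside the set, 4 rose and 1 fell.

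**Figure D1:**
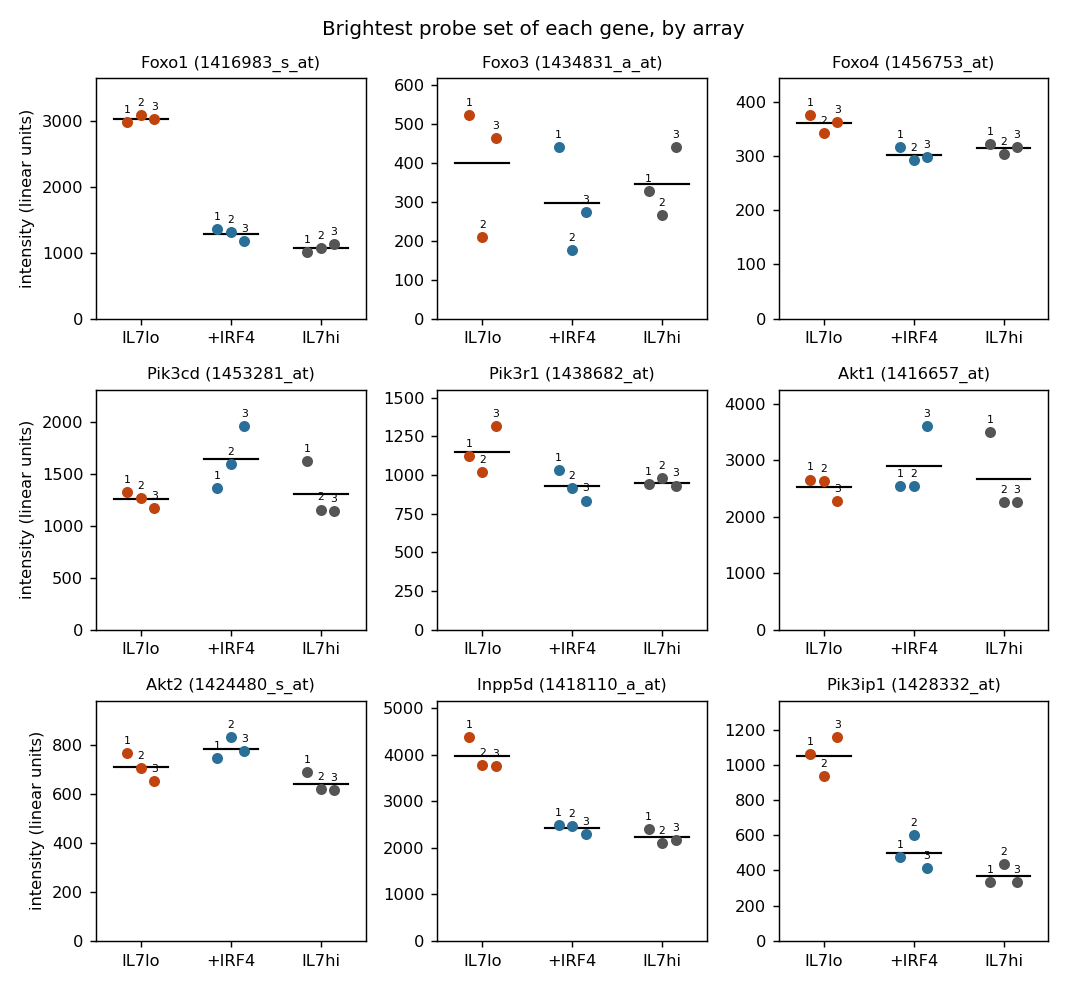
Intensity on a linear axis of the brightest probe set of each of the 9 genes on every array, with IL7lo, +IRF4 and IL7hi from left to right, the replicate number above each point and a bar at the group mean. Foxo1, Inpp5d and Pik3ip1 lie higher on all 3 IL7lo arrays than on any other array, while the points of Akt1, Pik3cd and Foxo3 spread widely within groups.

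Foxo1 was the member with the smallest p. Its brightest probe set, 1416983_s_at, read 2976, 3088 and 3031 in IL7lo, 1359, 1307 and 1173 in +IRF4, and 1015, 1069 and 1134 in IL7hi. The 3 IL7lo arrays lay close together and far above the rest, and even the +IRF4 arrays, though only slightly higher, did not overlap with IL7hi. The mean log2 level was 11.57 ± 0.03 in IL7lo and 10.09 ± 0.08 in IL7hi (SD, n = 3 each), a rise of 1.49 (SE 0.09, 2.80-fold, adjusted p = 1.21e-06). The probe set 1416981_at, at 2772, 2873 and 2498 in IL7lo against 911, 808 and 828 in IL7hi, rose by 1.66 (SE 0.11, 3.16-fold). The probe set 1416982_at rose by 1.08 (SE 0.15, 2.11-fold). This probe set was high on 1 control array, with 869 in IL7hi replicate 1 against 559 and 597 in the other 2, and its rise was 1.27 without the 2 arrays of low 18S signal. The fourth Foxo1 probe set, 1456529_at, was dim, at 156 to 182 in IL7lo and 125 to 177 in IL7hi, and was not called (difference 0.08, 95% interval -0.19 to 0.35). Of the 4 probe sets of this gene, 3 therefore moved together and 1 did not follow.

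Foxo3 and Foxo4, the other FOXO genes of the set, gave no call in low IL-7. The brightest Foxo3 probe set, 1434831_a_at, read 522, 210 and 462 in IL7lo, 439, 175 and 273 in +IRF4, and 328, 265 and 440 in IL7hi. Replicate 2 was the lowest array of every group, and the spread within groups was as wide as between them. The difference of IL7lo from IL7hi was 0.13 (SE 0.36, adjusted p = 0.813), with a 95% interval of -0.66 to 0.93 that allows changes of considerable size either way. A second Foxo3 probe set, 1434832_at, had the same low replicate 2, at 173 in IL7lo, 159 in +IRF4 and 221 in IL7hi, and a difference of -0.03 (SE 0.34). The third, 1450236_at, was dimmer and steadier, at 137 to 141 in IL7lo and 129 to 156 in IL7hi.

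Foxo4, which lacks a second probe set above the filter, moved little. Its probe set 1456753_at read 375, 343 and 361 in IL7lo, 316, 292 and 299 in +IRF4, and 322, 303 and 316 in IL7hi. The IL7lo arrays lay above all IL7hi arrays, as they did for 25.5% of all genes, but the difference of 0.19 (SE 0.08, 95% interval 0.01 to 0.36) did not pass the adjustment (adjusted p = 0.0899). The dim probe set, 1422149_at, read 90 to 118 in IL7lo and 80 to 126 in IL7hi. Within the family the rise in low IL-7 was thus called for Foxo1 alone. Whether Foxo1 differed from Foxo3 or Foxo4 in its response was not tested, since different probe sets are not on 1 scale.

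Both inhibitors of PI3K signalling in the set rose in low IL-7. Pik3ip1 read 1059, 938 and 1156 in IL7lo, 478, 604 and 414 in +IRF4, and 334, 437 and 337 in IL7hi on 1428332_at. No IL7lo array came near the others, while +IRF4 and IL7hi overlapped at 1 array each. The mean log2 level was 10.05 ± 0.15 in IL7lo and 8.58 ± 0.21 in IL7hi (SD, n = 3 each), a rise of 1.48 (SE 0.15, 2.78-fold, adjusted p = 3.60e-05). The second Pik3ip1 probe set, 1439087_a_at, rose by 1.01 (SE 0.11, 2.01-fold), from arrays at 443, 381 and 465 in IL7lo and 230, 211 and 177 in IL7hi. Both probe sets of this gene agreed in direction and in call.

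Inpp5d read 4379, 3790 and 3753 in IL7lo, 2487, 2476 and 2299 in +IRF4, and 2407, 2106 and 2164 in IL7hi on its bright probe set, 1418110_a_at. The groups IL7lo and IL7hi were well separated, and +IRF4 overlapped with IL7hi. The rise was 0.83 (SE 0.08, 1.78-fold, adjusted p = 3.22e-05). On 1424195_a_at, Inpp5d read 1184, 980 and 954 in IL7lo and 1032, 620 and 650 in IL7hi, where the 1 high control array is again IL7hi replicate 1. That probe set was not called over all 9 arrays (0.46, SE 0.18, adjusted p = 0.0753). Without the 2 arrays of low 18S signal it rose by 0.69 (adjusted p = 0.00142).

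The promoter sequences of the 3 genes that rose together are shown because their RNA shared 1 pattern. Each is the 250 bases before the RefSeq start on the build GRCm38.p6, plus strand, written 5′ to 3′, from chr3:52268087-52268336 for Foxo1, chr1:87620062-87620311 for Inpp5d and chr11:3330481-3330730 for Pik3ip1. Capitals mark matches to any of the motifs searched.
Foxo1: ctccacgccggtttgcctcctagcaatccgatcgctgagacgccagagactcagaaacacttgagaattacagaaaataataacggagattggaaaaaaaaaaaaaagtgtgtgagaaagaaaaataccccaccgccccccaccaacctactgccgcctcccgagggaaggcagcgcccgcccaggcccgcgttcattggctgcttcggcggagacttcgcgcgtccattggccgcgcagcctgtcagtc
Inpp5d: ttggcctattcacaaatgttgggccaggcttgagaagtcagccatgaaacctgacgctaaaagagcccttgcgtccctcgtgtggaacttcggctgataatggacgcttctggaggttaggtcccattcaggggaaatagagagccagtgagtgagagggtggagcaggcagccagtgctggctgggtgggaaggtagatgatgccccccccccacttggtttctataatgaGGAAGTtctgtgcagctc
Pik3ip1: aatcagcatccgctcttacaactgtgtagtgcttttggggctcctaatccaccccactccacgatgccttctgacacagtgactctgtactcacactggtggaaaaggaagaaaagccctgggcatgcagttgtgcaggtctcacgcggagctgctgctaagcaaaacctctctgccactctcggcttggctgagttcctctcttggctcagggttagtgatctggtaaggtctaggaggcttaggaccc

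The motifs were searched on both strands in all 32851 RefSeq promoter windows of that length. The FOXO motif TGTTTAC was in 3.17% of windows, the interferon-gamma activated site TTCNNNGAA bound by STAT factors in 7.02%, the ETS-IRF composite element in 2.3%, the interferon response element core, which can overlap with the composite, in 2.98%, and the ETS core GGAAGT, added after the sequences had been seen, in 19.7%. Of these, the Foxo1 and Pik3ip1 windows held none, and the Inpp5d window held the ETS core once, starting at position -18 from the start. Among the windows of the other members, TGTTTAC occurred in 1 of 2 windows of Akt1, and TTCNNNGAA and GGAAGT both occurred in 1 of 4 windows of Akt2. A match is a run of letters and no more, and these windows say nothing of sites farther away. Foxo4 had no window in the table used.

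The catalytic subunit p110delta, encoded by Pik3cd, is the main PI3K isoform of lymphocytes. On its brightest probe set, 1453281_at, Pik3cd read 1323, 1261 and 1170 in IL7lo, 1365, 1589 and 1955 in +IRF4, and 1623, 1155 and 1137 in IL7hi. The control arrays split, with IL7hi replicate 1 above all IL7lo arrays and the other 2 near or below the lowest of them. The difference of IL7lo from IL7hi was -0.04 (SE 0.16, 95% interval -0.39 to 0.31), and it changed sign, to 0.12, without the 2 arrays of low 18S signal. The 5 tested Pik3cd probe sets did not agree in direction. All but 1 ran from -0.24 to -0.04, while 1446770_at, at 415, 534 and 528 in IL7lo and 346, 432 and 360 in IL7hi, gave 0.36 (adjusted p = 0.0531).

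Pik3r1 encodes the regulatory subunits, p85alpha and its shorter forms, which hold the catalytic subunit in check until a receptor is engaged. Its brightest probe set, 1438682_at, read 1123, 1016 and 1315 in IL7lo, 1032, 917 and 835 in +IRF4, and 941, 979 and 932 in IL7hi. The IL7lo arrays lay just above those of IL7hi, and the difference of 0.26 (SE 0.11, 95% interval 0.01 to 0.52) did not pass the adjustment (adjusted p = 0.0991). The other 3 Pik3r1 probe sets gave 0.06 to 0.15, all positive and none called.

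The AKT kinases carry the signal from PI3K to FOXO. Akt1 read 2659, 2632 and 2282 in IL7lo, 2538, 2544 and 3602 in +IRF4, and 3504, 2257 and 2258 in IL7hi on 1416657_at. The 2 high arrays, +IRF4 replicate 3 and IL7hi replicate 1, are those of low 18S signal, and the second Akt1 probe set, 1425711_a_at, was also highest there, at 1126 and 1143 against 612 to 762 elsewhere. The difference of IL7lo from IL7hi was -0.05 (SE 0.18, 95% interval -0.46 to 0.35) with all arrays and 0.16 (adjusted p = 0.179) without those 2. Akt2 was steadier. It read 767, 703 and 652 in IL7lo, 743, 829 and 774 in +IRF4, and 687, 618 and 617 in IL7hi on 1424480_s_at, with a difference of 0.14 in IL7lo (SE 0.10, 95% interval -0.08 to 0.35).

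**Figure D2:**
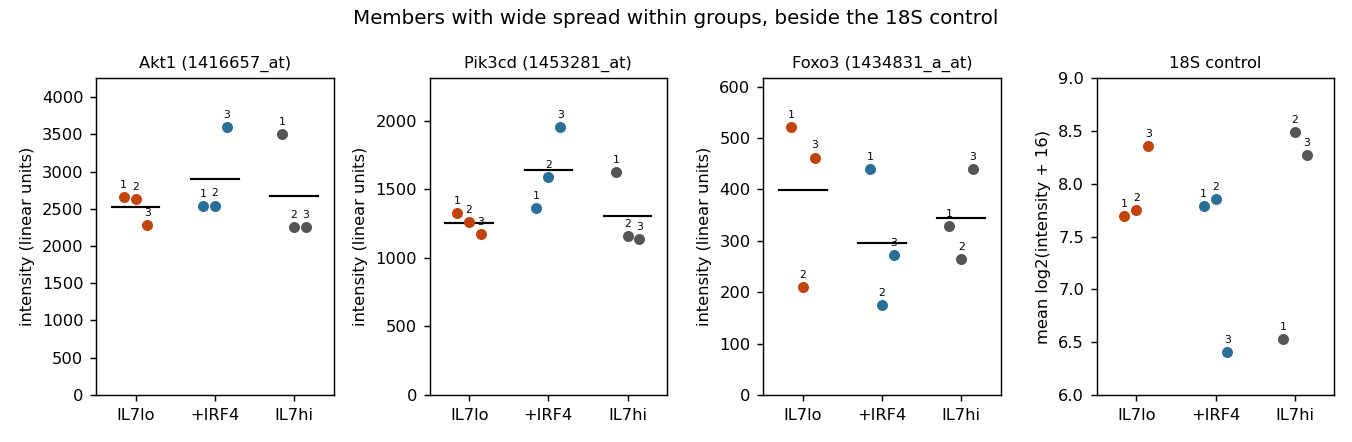
Intensity on a linear axis of the brightest Akt1, Pik3cd and Foxo3 probe sets on every array, with the replicate number above each point and a bar at the group mean, beside the mean log2(intensity + 16) of the 18S control on an axis cut to 6 to 9. Akt1 is highest on the 2 arrays with an 18S signal of 6.41 and 6.53, and Foxo3 is lowest on replicate 2 of each group.

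The +IRF4 arrays were compared with IL7hi to see what IRF4 changes while IL-7 stays high. None of the 9 genes was called by limma, and none of the 28 probe sets, in a comparison in which 2.85% of all genes and 2.76% of all probe sets were called. At an unadjusted p under 0.05, 3 of the 9 genes passed, Foxo1, Akt2 and Pik3ip1, and 14.6% of all genes did. All 3 differences were positive. The +IRF4 arrays lay above every IL7hi array for Foxo1 and Akt2, as for 10.0% of all genes.

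In +IRF4, Foxo1 differed from IL7hi by 0.25 (SE 0.09, 1.19-fold, 95% interval 0.06 to 0.44, adjusted p = 0.178), with mean log2 levels of 10.34 ± 0.11 in +IRF4 and 10.09 ± 0.08 in IL7hi (SD, n = 3 each). On the Foxo1 probe set 1416981_at the difference was 0.36 (adjusted p = 0.127), and without the 2 arrays of low 18S signal it passed, at 0.51 (adjusted p = 0.0404). The other 2 Foxo1 differences were 0.20 and 0.08. Pik3ip1 differed by 0.41 (SE 0.15, 95% interval 0.07 to 0.75, adjusted p = 0.224), and its second probe set by 0.21. Akt2 differed by 0.28 (SE 0.10, 95% interval 0.07 to 0.50, adjusted p = 0.185), but its other probe sets by 0.11 and 0.05. With array weights 4 members passed, Foxo1 at 0.23, Akt2 at 0.37, Pik3ip1 at 0.63 and Pik3cd at 0.41, so the absence of calls depends on that setting. That setting also raised the calls over all 27024 probe sets, from 747 to 3247.

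The remaining members were further from a call. On its brightest probe set, Inpp5d differed by 0.12 in +IRF4 (SE 0.08, 95% interval -0.07 to 0.31). The difference of 0.83 on that probe set in low IL-7 lies outside this interval. On 1424195_a_at, Inpp5d differed by 0.15 in +IRF4 (95% interval -0.26 to 0.55). That interval includes the difference of 0.46 on the same probe set in low IL-7. Pik3cd differed by 0.33 (SE 0.16, 95% interval -0.02 to 0.68), with IL7hi replicate 1 inside the +IRF4 range. Foxo3 and Akt1 differed by -0.27 (SE 0.36) and 0.13 (SE 0.18), and Foxo4 and Pik3r1 by -0.05 (SE 0.08) and -0.04 (SE 0.11).

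**Figure D3:**
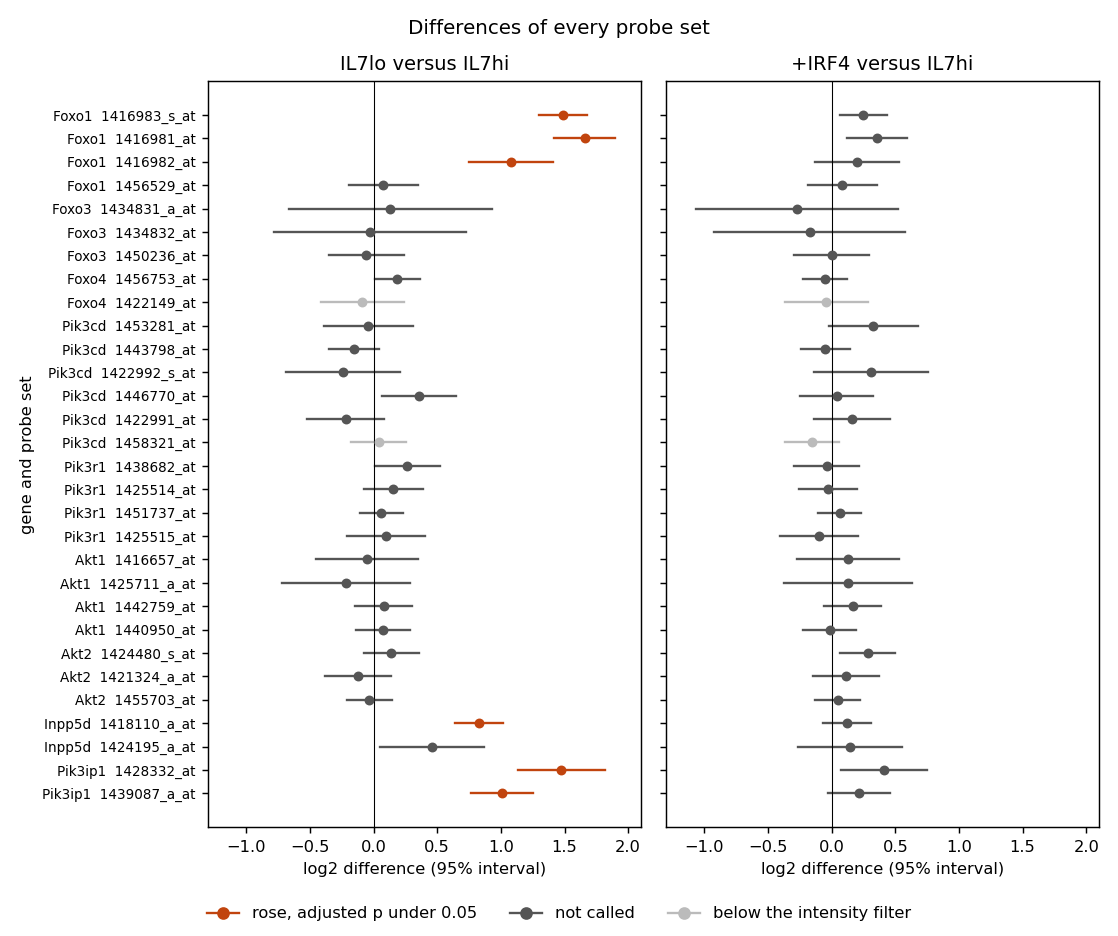
Log2 difference of all 30 probe sets, with bars for the 95% interval, in IL7lo minus IL7hi on the left and +IRF4 minus IL7hi on the right. In IL7lo, 6 probe sets of Foxo1, Inpp5d and Pik3ip1 were called, between 0.83 and 1.66, and in +IRF4 none was.

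Whether the responses to low IL-7 and to IRF4 differed was tested by setting +IRF4 directly against IL7lo. Of the 9 genes 4 fell in +IRF4 relative to IL7lo and none rose, beside 17.7% of all genes that fell and 36.3% that were called either way. Foxo1 was lower in +IRF4 by a difference of -1.24 (SE 0.09, adjusted p = 3.62e-06), Pik3ip1 by -1.06 (SE 0.15, adjusted p = 0.000357) and Inpp5d by -0.71 (SE 0.08, adjusted p = 0.000107). The fourth, Foxo4, changed by -0.24 (SE 0.08, adjusted p = 0.0355). This last call was marginal. The difference stayed between -0.27 and -0.21 with single arrays left out, but the call was lost in 5 of these fits, at an adjusted p of 0.0562 without IL7hi replicate 3, 0.0657 without +IRF4 replicate 3, 0.0891 without IL7lo replicate 1, 0.0995 without IL7lo replicate 3 and 0.117 without +IRF4 replicate 2. For Pik3cd, 1422991_at was higher in +IRF4 than in IL7lo, by 0.38 (adjusted p = 0.0487), while the brightest probe set gave 0.37 (adjusted p = 0.0928) and 1446770_at gave -0.32. Without the 2 arrays of low 18S signal, 1422992_s_at rose by 0.38 (adjusted p = 0.0224) and 1446770_at fell, at -0.40 (adjusted p = 0.0423), so the Pik3cd probe sets were called in opposite directions.

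Genes with the most similar profiles were found by the root mean square difference of mean-centred log2 values over the 9 arrays. Nearest to Foxo1 was Blnk, the adaptor of the pre-B cell receptor, at 0.076, against a spread of Foxo1 itself of 0.69 (SD over the 9 arrays). It was followed by Cdk5r1 at 0.10 and Pycard at 0.11. Nearest to Pik3ip1 were Arhgap25 at 0.093, Ypel5 at 0.11 and Gm13012 at 0.11, and nearest to Inpp5d were Slc25a51 at 0.042, Atg16l2 at 0.047 and Epc1 at 0.058. Among the members, Foxo1 and Pik3ip1 were 0.19 apart, against spreads of 0.69 each, and Pik3cd and Akt1 were 0.12 apart, against 0.26 and 0.25. Foxo4 and Pik3r1 were 0.11 apart, beside a spread of 0.12 for Foxo4 itself and 0.19 for Pik3r1. Akt1 was nearest to Rhog (0.061) and Pik3cd to Sphk2 (0.076). For Akt2, Pik3r1 and Foxo4 the nearest genes were Smim8 (0.048), Rbm18 (0.071) and Stam (0.018), and for Foxo3 the nearest, Rgcc, was 0.21 away.

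Other PI3K subunits and adaptors were read from a list of 13 genes, of which 10 were tested. This list and those below were chosen with earlier results of these data known, so counts beside all genes are descriptions only. In IL7lo, 7 rose and none fell, beside 17.6% of all genes that rose, with a median of 0.77 beside 0.02 over all genes. Pik3cg, the catalytic subunit p110gamma used by G protein-coupled receptors, read 960, 664 and 889 in IL7lo and 332, 226 and 248 in IL7hi, a rise of 1.58 (SE 0.17). The docking adaptors Gab2 and Gab1 rose by 1.67 (SE 0.20) and 1.35 (SE 0.15), Irs2, the insulin receptor substrate, by 1.26 (SE 0.14), and Pik3ca, the catalytic subunit p110alpha, by 0.60 (SE 0.11). Pik3ap1, which encodes the B cell adaptor BCAP, rose by 0.95 (SE 0.15) in IL7lo. In +IRF4, Pik3ap1 rose by 1.14 relative to IL7hi (SE 0.15, adjusted p = 0.00269), reading 1788, 1370 and 1451 in +IRF4 against 823, 567 and 682 in IL7hi. The other rise of the list in +IRF4, Pik3r5, named after its value was seen, was 0.55 (adjusted p = 0.0227). Pik3r5 was dim, with mean log2 levels of 7.42 in +IRF4, 7.35 in IL7lo and 6.88 in IL7hi. Its IL7hi level lay below the filter, so it was tested only through the groups where it was high. It is also 1 of the 7 rises in IL7lo. In +IRF4, 1 rise of the list was left without both arrays of low 18S signal, with a filter at the 60th percentile, with only the 6 arrays compared, and without any single IL7hi array or +IRF4 replicate 2. With array weights 4 rose and 2 fell, in a fit that called 3247 of all 27024 probe sets. Thus the catalytic subunits Pik3cg and Pik3ca rose in low IL-7, where the member Pik3cd was not called.

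Phosphatases and other brakes beside the members were read from 12 genes, 10 of them tested, and in IL7lo 4 rose and 1 fell with a median of 0.18, beside 17.6% of all genes that rose and 19.4% that fell. Fcgr2b, the inhibitory Fc receptor that recruits SHIP1 in B cells, rose by 1.54 (SE 0.23), Phlpp1, a phosphatase of AKT, by 0.84 (SE 0.11), Inppl1, which encodes SHIP2, by 0.60 (SE 0.14), and Tsc1 by 0.36 (SE 0.09). The fall was that of Trib3, a pseudokinase that binds AKT, at -1.04 (SE 0.19). Inpp4a, a further lipid phosphatase, was not called (0.21, adjusted p = 0.0585). In +IRF4, Fcgr2b alone was called relative to IL7hi, at 1.06 (SE 0.23, adjusted p = 0.0353), reading 1137, 2210 and 1826 in +IRF4 and 683, 1006 and 714 in IL7hi. That call was marginal: no gene of the list was called to rise with only the 6 arrays compared, without both arrays of low 18S signal, or without any single array other than +IRF4 replicate 1 and IL7hi replicate 2.

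Of 16 kinases and mTOR components, 14 were tested, and in IL7lo 4 rose and 3 fell with a median of 0.12, not far from the 17.6% and 19.4% of all genes. The kinase gene Sgk1, a relative of AKT, read 1130, 1828 and 1664 in IL7lo and 389, 812 and 663 in IL7hi, a rise of 1.32 (SE 0.26). Rictor, the scaffold of the mTOR complex that phosphorylates AKT, rose by 0.43 (SE 0.10), and Pdpk1, the other kinase of AKT, by 0.30 (SE 0.09). The fourth rise, named after its value was seen, was Mtor, at 1.02 (SE 0.34, adjusted p = 0.038). Eif4ebp1, a translation repressor downstream of mTOR, changed by -0.75 (SE 0.12), Sgk3 by -0.51 (SE 0.17) and the ribosomal protein gene Rps6 by -0.36 (SE 0.09). In +IRF4 none of the 14 was called by limma relative to IL7hi, and 1, Rictor at -0.24, had an unadjusted p under 0.05. Over the single-array and other alternatives the number that rose in IL7lo ran from 2 to 5.

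Partners and modifiers of FOXO proteins were read from 15 genes, 14 of them tested. In IL7lo, 7 rose and 4 fell, with a median of 0.18, beside 17.6% and 19.4% of all genes. Foxp1, a forkhead factor of B cell development, rose by 0.94 (SE 0.08), Stk4, a kinase that phosphorylates FOXO proteins, by 0.69 (SE 0.05), and the acetyltransferases Ep300 and Crebbp by 0.65 (SE 0.09) and 0.36 (SE 0.09). The 14-3-3 gene Ywhab, whose product holds phosphorylated FOXO in the cytoplasm, rose by 0.19 (SE 0.04), and Xpo1, the nuclear exporter, changed by -0.36 (SE 0.06). The 14-3-3 genes did not move one way. Of the other tested ones, named after their values were seen, Ywhaq rose by 0.19 (SE 0.06), Ywhae changed by -0.33 (SE 0.10, adjusted p = 0.0239) and Ywhag by -0.38 (SE 0.10, adjusted p = 0.0105), and Ywhah and Ywhaz were not called. Foxp1 was the 1 gene of the list called in +IRF4 relative to IL7hi, at 0.69 (SE 0.08, adjusted p = 0.00127), with 2816, 2868 and 2668 in +IRF4 against 1597, 1883 and 1701 in IL7hi.

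Genes known as FOXO targets in lymphocytes or other cells were read from a list of 28, and 26 were tested. Since the list was chosen with earlier results of these data known, its counts beside all genes are a description only. In IL7lo, 15 rose and 2 fell with a median of 0.54, beside 17.6% and 19.4% of all genes, and without the arrays of low 18S signal 16 rose. Rag1 and Rag2, the recombinase genes, rose by 4.67 (SE 0.25) and 3.37 (SE 0.12), Il7r by 2.83 (SE 0.12), Ccng2, a cyclin linked to cell cycle arrest, by 1.54 (SE 0.11), Trp53inp1 by 1.51 (SE 0.07) and Blnk by 1.42 (SE 0.06). The falls, named after their values were seen, were Cited2 at -1.73 (SE 0.15) and the superoxide dismutase gene Sod2 at -1.24 (SE 0.10). In +IRF4, 6 rose relative to IL7hi and none fell, with a median of 0.20, beside 1.91% of all genes that rose. Foxo1 itself differed by 0.25 in +IRF4 and was not called, and FOXO proteins were not measured. Whether the rises of these listed genes depend on Foxo1 was not tested. Rag1 rose by 1.42 (SE 0.25, adjusted p = 0.0146), reading 423, 639 and 406 in +IRF4 and 148, 259 and 124 in IL7hi. Trp53inp1 rose by 0.71 (SE 0.07, adjusted p = 0.00034) and Ccng2 by 0.51 (SE 0.11, adjusted p = 0.032). The chemokine receptor gene Ccr7, named after its values were seen, rose by 1.47 in +IRF4 and changed by -0.08 in IL7lo (adjusted p = 0.680). Without the arrays of low 18S signal 4 rises were left, without single arrays the number ran from 2, without +IRF4 replicate 2, to 6, and 1 gene fell without +IRF4 replicate 1. With only the 6 arrays compared 3 rose, and with array weights 10 rose and 4 fell. The fit with array weights called 3247 of all 27024 probe sets.

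**Figure D4:**
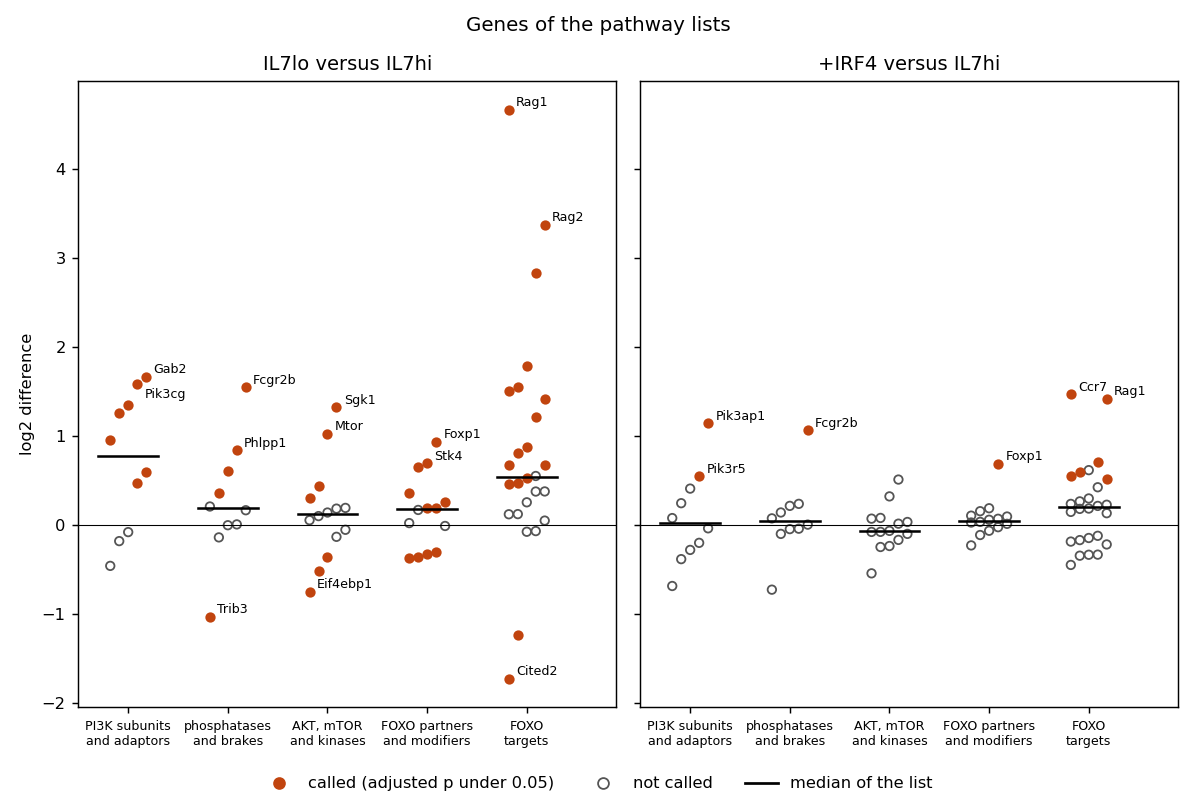
Log2 difference of each tested gene of the 5 pathway lists in IL7lo minus IL7hi on the left and +IRF4 minus IL7hi on the right, with filled points for called genes, open points for the others and a bar at the list median. The medians for the PI3K subunits and the FOXO targets lie at 0.77 and 0.54 in IL7lo and at 0.02 and 0.20 in +IRF4.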

How the data were processed

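The authors deposited 1 table with a linear intensity for each probe set on each of the 9 arrays. Per the labels' protocols, RNA extraction used Trizol followed by a column, and labelling was standard for Affymetrix arrays; the summary and scaling methods are not given in the sources used here. Values of 45101 probe sets ran from 0 to 24761.9, and no normalization was added. All table columns belonged to a sample. Replicates correlated with r from 0.986 to 0.996. Symbols came from the platform annotation, in which 34945 probe sets had 1 symbol, 932 several and 9160 none, besides 64 controls; promoters came from RefSeq on GRCm38.p6. Some listed genes had no probe set with a single symbol and were not analysed here.

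Values were taken as log2(intensity + 16), controls were dropped, and probe sets at or above the 40th percentile of mean intensity were fitted with group means over all 9 arrays (limma 3.58.1, R 4.3.3, eBayes with trend, Benjamini-Hochberg over all probe sets). The procedure was tested on simulated data. Lists were described by counts and medians. From each list up to 6 genes with the smallest p in the comparisons against IL7hi were named, and for each member up to 3 genes with the nearest profile. The members and lists were chosen with earlier results of these data known. The comparisons against IL7hi share its arrays. Same-numbered arrays did not pair across all groups: their deviations correlated from -0.35 to 0.53, over 0.1 in 3 of 9 pairs. Those 3 were the pairs of IL7lo with IL7hi, at 0.53, 0.35 and 0.19. Differently numbered pairs of these groups ran from -0.51 to 0.36. A shared replicate effect between IL7lo and IL7hi is thus possible. The main fit used no block, and a fit with the replicate number as a block was an alternative. Figures were drawn with matplotlib 3.10.9. Alternatives changed the pseudocount, filter, normalization, variance model, weights, block, tested unit and arrays.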

Additional observations from a re-analysis of the deposited data

How the results depend on the processing

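Over 22 alternatives, the rises of Foxo1, Inpp5d and Pik3ip1 in IL7lo relative to IL7hi and their lower levels in +IRF4 relative to IL7lo kept direction and call in every one. The differences in IL7lo ran from 1.08 to 1.56 for Foxo1, from 0.65 to 0.89 for Inpp5d and from 1.24 to 1.60 for Pik3ip1. Of 594 recomputed member differences, 549 kept their direction and their side of the threshold. The replicate number as a block changed no member call (3, 0 and 4 genes called in IL7lo against IL7hi, +IRF4 against IL7hi and +IRF4 against IL7lo), and Foxo1 in IL7lo then had an adjusted p of 1.59e-05. In IL7lo against IL7hi, quantile normalization gave 0.019 for Pik3cd, 0.0077 for Akt1 and a called 0.33 for Pik3r1. Array weights gave 5 called members, 15309 called probe sets, 0.030 for Pik3cd, 0.019 for Akt1, and called values of 0.19 for Foxo4 and 0.40 for Pik3r1. One probe set per gene left 4801 calls, and the mean of the probe sets of a gene 4918, with Foxo4 called at 0.19 and Akt2 at -0.0047. Without both arrays of low 18S signal, Pik3cd was 0.12 and Akt1 0.16. Leaving out 1 array at a time gave -0.11 to 0.52 for Foxo3, -0.13 to 0.12 for Pik3cd and -0.16 to 0.16 for Akt1. In +IRF4 against IL7hi, array weights called 4 members, Foxo1 at 0.23, Pik3cd at 0.41, Akt2 at 0.37 and Pik3ip1 at 0.63, and 3247 probe sets. The calls over all probe sets were 321 with the 6 arrays compared, 365 with 1 probe set per gene, 412 with gene means, 414 without both arrays of low 18S signal, where Pik3r1 was 0.026, and 353 to 1047 without single arrays. Single arrays left out gave -0.59 to 0.037 for Foxo3, -0.12 to 0.033 for Pik3r1 and -0.041 to 0.34 for Akt1. In +IRF4 against IL7lo, the Foxo4 call was lost at -0.24 with no filter or with only the 6 arrays compared, at -0.18 with quantile normalization, at -0.17 with a common array median and at -0.23 without both arrays of low 18S signal. Quantile normalization called Pik3r1 at -0.34. Array weights called 8 members and 15220 probe sets, among the members Foxo3 at -0.84, Pik3cd at 0.38, Pik3r1 at -0.41 and Akt2 at 0.27, and gene-level fits made 4666 and 4849 calls. Single arrays left out gave -0.27 to -0.21 for Foxo4, 0.23 to 0.49 for Pik3cd and -0.39 to -0.20 for Pik3r1. Among these fits, Pik3cd was called without IL7hi replicate 1 (adjusted p = 0.0394) and without +IRF4 replicate 1 (adjusted p = 0.0408). Pik3r1 was called without +IRF4 replicate 1 (adjusted p = 0.0384) and without IL7lo replicate 2 (adjusted p = 0.0349). The cause of these shifts was not tested. The gene-level fits tested fewer features, so their counts of calls are not directly comparable with those over all probe sets. The 3 arrays per group limit the precision of all values.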
